A study of Mus musculus with 10 samples.

Results

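The genes described here are 10 members of the ATF4 pathway: Atf4 itself and 9 genes that ATF4 is known to induce, Phgdh, Psat1, Shmt2, Mthfd2, Asns, Slc7a11, Chac1, Trib3 and Ddit3. They are 10 of the 35427 genes in the files and 10 of the 14105 tested in at least 1 comparison. They were chosen by their place on lists of known ATF4 targets and by their read counts in these same lines, with the values of all 3 genotypes in view. The comparison that decided the choice is not recorded, and that of Tdg+/- with wt lines was taken to be it. Single genes are therefore described in that comparison without a p, and counts over the 10 genes stand only beside the same share of all genes and support nothing.

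RNA was sequenced from 10 male mouse embryonic stem cell (ESC) lines on the C57BL/6 background, which were derived from blastocysts of matings between Tdg+/- mice. They comprised 3 wt lines (Tdg+/+), 3 lines with 1 wild-type allele of Tdg (Tdg+/-) and 4 lines without one (Tdg-/-), each with 1 library. All lines were started on feeder cells, moved off them before RNA was taken, and grown on gelatin in serum-free medium with LIF and 2 inhibitors (2i), without any further treatment. Tdg encodes a DNA glycosylase of active DNA demethylation, and the question was how gene expression depends on its genotype. Lines carry a number within their genotype, but no label says which mating a line came from, and p values cover only the variation among these lines. Each genotype is thus represented by 3 or 4 lines only.

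ATF4 is a transcription factor of the integrated stress response. When amino acids are short or the endoplasmic reticulum is stressed, kinases phosphorylate the translation factor eIF2α, which lowers protein synthesis in general but favours translation of the Atf4 mRNA. The ATF4 protein, usually paired with a C/EBP protein, then induces genes that import and make amino acids, charge tRNAs, supply one-carbon units and handle glutathione, together with the feedback genes Trib3 and Ddit3. Since much of this control acts on translation and protein stability, mRNA levels show only a part of it.

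Labels and lines were checked first. Tdg reads were 86.4 to 93.1 CPM (reads scaled to a common library size) in the wt lines, 40.3 to 45.9 in Tdg+/- and 7.75 to 10.6 in Tdg-/- lines, so every line matched its label. The libraries held 31095285 to 39916039 reads in genes. The summed level of 10 naive ESC markers was 3582 to 4030 CPM, while 12 feeder fibroblast markers summed to 10.97 to 67.2 CPM. Primitive endoderm markers summed to 34.3 to 74.1 CPM (Gata6, Sox17, Dab2 and Foxa2 under 20 reads in every line) and markers of primed epiblast to 87.7 to 141 CPM (Fgf5 and Wnt8a under 20 reads). Mitochondrially encoded genes took 0.899% to 1.678% of reads. The normalization factors were 1.005 to 1.052 in 7 lines but 0.913 to 0.938 in Tdg-/- lines 2, 3 and 4, which set these 3 lines apart.

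The C/EBP-ATF response element, the composite site to which ATF4 binds with a C/EBP partner, was searched as TGATGNAA on both strands of the RefSeq promoters (mouse build GRCm38.p6, 250 bases before to 50 after the transcription start, positions counted from the start). All 10 genes had a promoter in the table, and 4 of them, Asns, Slc7a11, Chac1 and Trib3, held a match, against 4.51% of 27025 genes. The windows around these matches are shown because they hold the composite element, which in Asns and Slc7a11 is a known amino acid response element, with the matched letters in capitals. They lie on chromosomes 6 (Asns, chr6:7693210-7693269, minus strand), 3 (Slc7a11, chr3:50443637-50443696, minus strand) and 2 (Chac1, chr2:119351023-119351082, plus strand, and Trib3, chr2:152344028-152344057, minus strand), each read along the strand of its gene.
Asns: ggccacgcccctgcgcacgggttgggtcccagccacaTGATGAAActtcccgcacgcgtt
Slc7a11: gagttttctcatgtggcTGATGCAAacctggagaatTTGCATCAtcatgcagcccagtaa
Chac1: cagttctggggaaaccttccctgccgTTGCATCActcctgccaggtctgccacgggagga
Trib3: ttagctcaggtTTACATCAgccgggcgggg

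In Asns the match lay at -23 to -16 on the strand of the gene. Slc7a11 held a pair of matches that face each other, at -66 to -59 on its own strand and at -47 to -40 on the opposite one. In Chac1 (-193 to -186) and Trib3 (15 to 22) the match read on the opposite strand. The promoters of Atf4, Phgdh, Psat1, Shmt2, Mthfd2 and Ddit3 held none within this window, which says only that these letters were not there. The palindromic cAMP response element TGACGTCA, which shares part of its letters with the composite site, was in none of the 10, against 2.03% of all genes. Among the other lists of ATF4 targets, TGATGNAA was found in 5 of 8 promoters of tRNA synthetases (Aars, Gars, Iars, Tars and Yars), in 6 of 14 of stress and feedback genes (Atf3, Nupr1, Vldlr, Fgf21, Jdp2 and Herpud1) and in 1 of 13 of other serine and one-carbon genes (Pycr1).

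Levels per transcript length differed widely between the 10 genes. In TPM, a scale that divides reads by transcript length, the mean over the 10 lines was highest for Asns at 1029. Psat1 followed at 318 TPM, Phgdh at 125, Atf4 at 102.5 and Mthfd2 at 57.3. Shmt2 had a mean of 41.8 TPM, Trib3 20.5, Ddit3 9.69, Chac1 4.62 and Slc7a11 0.958. Among neighbours in this order, only Asns and Psat1, and Psat1 and Phgdh, had ranges over the lines that did not overlap. These TPM are sums over transcripts, in which short ones weigh much. A transcript of 397 bases gave 41.5% of the sum of Shmt2, and one of 446 bases gave 30.8% of that of Phgdh. By the transcript with the most reads alone, Phgdh (75.7 TPM) lay below Atf4 (101.5) and Shmt2 (18.7) below Trib3 (20.35). The genes lie on chromosomes 2 (Chac1, Trib3), 3 (Phgdh, Slc7a11), 6 (Asns, Mthfd2), 10 (Shmt2, Ddit3), 15 (Atf4) and 19 (Psat1). Tdg is also on chromosome 10, 44.9 Mb from Shmt2 and 44.7 Mb from Ddit3.

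The following levels are CPM scaled by TMM normalization, which compare lines for one gene but not genes with each other. Where a fold change between Tdg+/- and wt is given, its standard error (SE) follows and no test is made. A difference that involves Tdg-/- lines comes with a 95% interval and an adjusted p from edgeR's quasi-likelihood test, adjusted over all genes tested (Benjamini-Hochberg). These comparisons share their wt or Tdg+/- lines with that of Tdg+/- and wt, and the Tdg-/- values were also in view when the genes were chosen, so their p values are not independent of that choice and are no separate evidence. In bulk RNA, fewer cells that express a gene and less RNA per cell cannot be told apart.

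Atf4 itself had its highest mean CPM in wt and its lowest in Tdg+/- lines. In TPM the lowest mean was that of the Tdg-/- lines (91.8, against 99.1 in Tdg+/- and 120.2 in wt), a log2 ratio of -0.39 between Tdg-/- and wt. The wt lines 1 to 3 had 435, 363 and 419 CPM, the Tdg+/- lines 377, 254 and 260.2, and the Tdg-/- lines 1 to 4 403, 340.3, 389 and 328. Tdg+/- lines 2 and 3 were the lowest of all, while Tdg+/- line 1 lay within the wt range. In Tdg+/- against wt Atf4 had a log2 fold change of -0.46 (SE 0.16). In Tdg-/- against wt it was -0.13 (95% interval -0.40 to 0.14, adjusted p = 0.549, edgeR) and in Tdg-/- against Tdg+/- 0.30 (-0.05 to 0.65, adjusted p = 0.201, edgeR), where the ratio of the mean TPM pointed the other way (log2 -0.11). Without Tdg+/- line 1 the last comparison passed the threshold, at 0.51 (adjusted p = 0.0440, edgeR). In fits without 1 line the number of all genes called also moved widely (see the closing section), so this call is not read as particular to Atf4.

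The serine synthesis enzymes had levels in Tdg+/- lines that lay apart from those of both other genotypes. Phgdh encodes the first enzyme of serine synthesis from a glycolytic intermediate. It had 261, 192 and 199.9 CPM in wt, 189.7, 162 and 163 in Tdg+/-, and 247, 229.7, 256 and 226 in Tdg-/- lines. All 3 Tdg+/- lines were below every line of the other 2 genotypes, with only a small gap to wt line 2.

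Psat1 encodes the aminotransferase of the next step. It had 828, 598 and 821 CPM in wt, 545, 506 and 438 in Tdg+/-, and 838, 649, 859 and 719 in Tdg-/- lines. Again no Tdg+/- line reached the lowest line of another genotype. Against wt the log2 fold change in Tdg+/- was -0.60 (SE 0.15) for Psat1 and -0.35 (SE 0.14) for Phgdh.

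Both enzymes were higher in Tdg-/- than in Tdg+/- lines. The log2 fold change was 0.63 for Psat1 (95% interval 0.32 to 0.93, adjusted p = 0.0323, edgeR) and 0.48 for Phgdh (0.24 to 0.73, adjusted p = 0.0342, edgeR), higher in 4 of 4 Tdg-/- lines than in any Tdg+/- line. Against wt, Tdg-/- lines showed 0.06 for Psat1 (-0.29 to 0.40, adjusted p = 0.850, edgeR) and 0.16 for Phgdh (-0.13 to 0.45, adjusted p = 0.495, edgeR).

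The call between Tdg-/- and Tdg+/- depended on single lines. It was lost for both genes without Tdg+/- line 2 or 3 or Tdg-/- line 2, 3 or 4, with adjusted p from 0.0743 to 0.125 for Psat1 and from 0.0794 to 0.134 for Phgdh, while the log2 fold changes stayed at 0.55 to 0.70 and 0.45 to 0.51. It was also lost with an offset for effective transcript length (adjusted p = 0.0510 and 0.0822, edgeR). A block for the line number (the replicate block) ended both calls too (adjusted p = 0.1635 for Psat1 and 0.1712 for Phgdh, edgeR). In TPM the Tdg-/- lines had 264 to 427 against 239 to 276 in Tdg+/- for Psat1, and 101 to 168 against 94.8 to 121 for Phgdh, so the lines overlapped on that scale, on which Psat1 and Phgdh were lower in Tdg-/- than in wt lines (log2 ratios of the means -0.15 and -0.21).

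Reads of a main transcript made up most of both genes, 90.6% to 95.3% for Phgdh and 74.9% to 97.5% for Psat1, with the lowest share in Tdg+/- line 3. For the main Psat1 transcript alone the log2 ratio of mean TMM-scaled reads, Tdg+/- to wt, was -0.72. Phgdh was the only member with near-identical transcripts elsewhere, in 9 other genes such as Phgdh-ps1, whose reads together came to 0.446% of those of Phgdh.

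The 2 mitochondrial one-carbon enzymes behaved differently from each other. Shmt2 encodes the hydroxymethyltransferase that takes a one-carbon unit from serine. It had 102, 120.1 and 116 CPM in wt, 87.5, 118 and 134 in Tdg+/-, and 134, 81.6, 86.9 and 75.8 in Tdg-/- lines. The genotypes overlapped, Tdg+/- line 1 was the lowest of its genotype where it was the highest for every other member, and Tdg-/- lines 2 to 4 were the lowest of all.

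The log2 fold change of Shmt2 was 0.00 (SE 0.16) in Tdg+/- against wt and -0.23 in Tdg-/- against wt (95% interval -0.65 to 0.18, adjusted p = 0.494, edgeR). Without Tdg-/- line 1 the latter became -0.44 (adjusted p = 0.0199, edgeR) and passed the threshold. Against Tdg+/- lines it was -0.26 (-0.73 to 0.22, adjusted p = 0.409, edgeR), and -0.47 without Tdg-/- line 1 (adjusted p = 0.0333, edgeR). Calls over all genes moved widely too in fits without 1 line, so these calls are not read as particular to Shmt2.

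Mthfd2 encodes the folate dehydrogenase and cyclohydrolase that acts on that unit in mitochondria. It had 134, 82.1 and 107 CPM in wt, 93.9, 64.8 and 64.5 in Tdg+/-, and 127, 61.6, 90.1 and 67.9 in Tdg-/- lines. Line 1 was the highest in each genotype. For Mthfd2 the log2 fold change was -0.54 (SE 0.21) in Tdg+/- against wt, -0.29 in Tdg-/- against wt (-0.84 to 0.26, adjusted p = 0.513, edgeR) and 0.22 in Tdg-/- against Tdg+/- (-0.33 to 0.78, adjusted p = 0.543, edgeR), which turned to -0.02 without Tdg-/- line 1.

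Asns encodes asparagine synthetase, a classical ATF4 target. Its levels were 1607, 1388 and 1432 CPM in wt, 1589, 1518 and 1421 in Tdg+/-, and 1603, 1010.1, 1201 and 1142 in Tdg-/- lines. The wt and Tdg+/- lines overlapped fully, and Tdg-/- lines 2 to 4 were below all of them while Tdg-/- line 1 was not. For Asns the log2 fold change was 0.02 (SE 0.09) in Tdg+/- against wt. In Tdg-/- it was -0.23 against wt (-0.58 to 0.11, adjusted p = 0.423, edgeR) and -0.28 against Tdg+/- (-0.64 to 0.07, adjusted p = 0.220, edgeR). Without Tdg-/- line 1 these were -0.37 (adjusted p = 0.0309, edgeR) and -0.43 (adjusted p = 0.00778, edgeR). As the number of all genes called also moved widely in such fits, these calls are not read as particular to Asns.

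**Figure D1:**
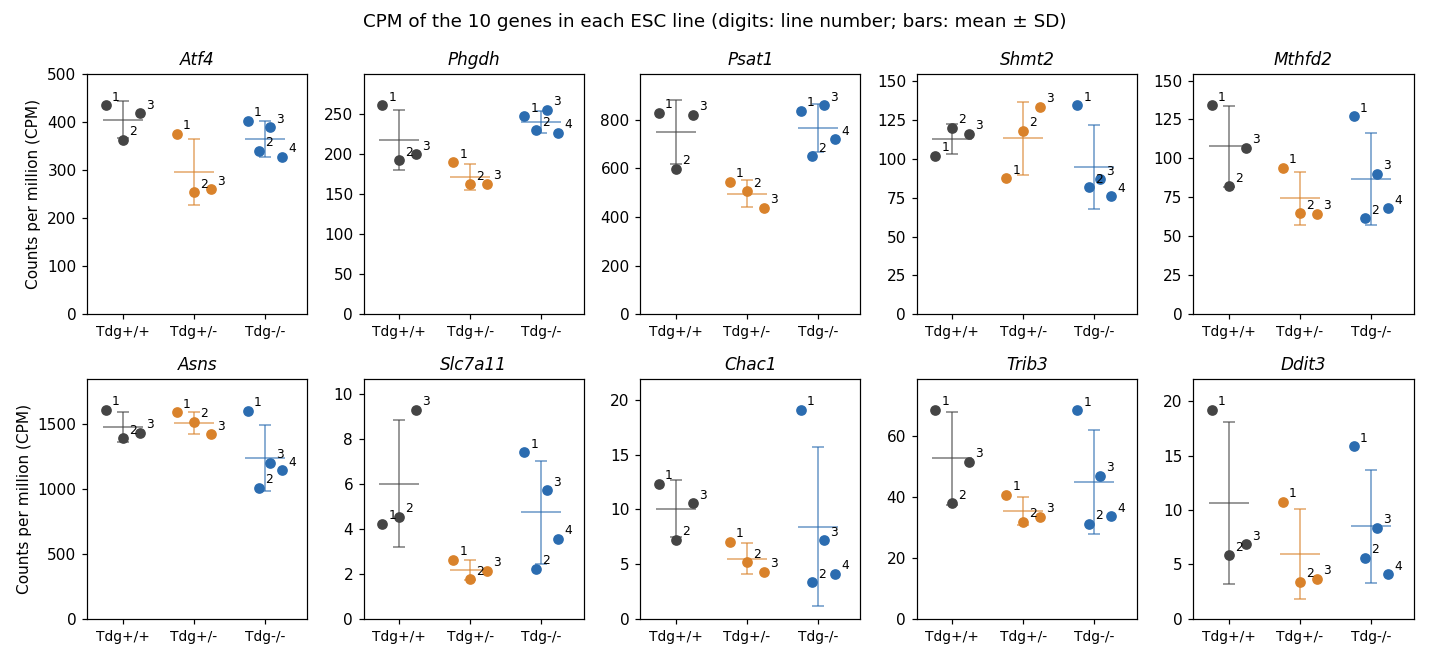
CPM (TMM-scaled reads, linear axis from 0) of the 10 genes in the 3 Tdg+/+ (wt, grey), 3 Tdg+/- (orange) and 4 Tdg-/- (blue) lines. Points are single lines with their number, and horizontal bars with whiskers are mean ± SD. For Psat1 and Phgdh all 3 Tdg+/- lines lie below the others, while for Ddit3, Trib3 and Mthfd2 line 1 lies at the top of each genotype.

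Slc7a11 and Chac1, which act on cystine and glutathione, had few reads. Slc7a11 encodes the cystine importer that feeds glutathione synthesis. It had 4.21, 4.54 and 9.28 CPM in wt, 2.63, 1.75 and 2.14 in Tdg+/-, and 7.39, 2.23, 5.71 and 3.56 in Tdg-/- lines, or 67 to 296 reads per line. Every Tdg+/- line was below every wt line, and Tdg-/- line 2 fell among the Tdg+/- lines. The log2 fold change in Tdg+/- against wt, -1.48 (SE 0.34), was the farthest from 0 among the 10 genes. It was -0.33 in Tdg-/- against wt (-1.23 to 0.57, adjusted p = 0.655, edgeR) and 1.12 in Tdg-/- against Tdg+/- (0.28 to 1.96, adjusted p = 0.0752, edgeR). With DESeq2 the last passed the threshold (adjusted p = 0.0140), in a fit that also called many more of all genes (see the closing section).

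Chac1 encodes an enzyme that degrades glutathione. It had 12.4, 7.21 and 10.5 CPM in wt, 7.03, 5.17 and 4.29 in Tdg+/-, and 19.1, 3.34, 7.17 and 4.10 in Tdg-/- lines, or 121 to 632 reads per line. The Tdg+/- lines lay just below the wt lines, whereas the Tdg-/- lines included both the highest and the lowest value of all. The log2 fold change was -0.88 (SE 0.26) in Tdg+/- against wt, -0.24 in Tdg-/- against wt (-1.39 to 0.91, adjusted p = 0.801, edgeR) and 0.62 in Tdg-/- against Tdg+/- (-0.58 to 1.81, adjusted p = 0.429, edgeR). Without Tdg-/- line 1 the last turned to -0.17.

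The feedback genes varied between lines of a genotype as well as between genotypes. Trib3 encodes a pseudokinase that restrains ATF4 signalling. It had 68.5, 38.0 and 51.4 CPM in wt, 40.7, 31.9 and 33.6 in Tdg+/-, and 68.4, 31.1, 47.0 and 33.6 in Tdg-/- lines. Line 1 was again the highest of each genotype, and wt line 2 lay below Tdg+/- line 1. For Trib3 the log2 fold change was -0.58 (SE 0.21) in Tdg+/- against wt, -0.21 in Tdg-/- against wt (-0.82 to 0.41, adjusted p = 0.684, edgeR) and 0.35 in Tdg-/- against Tdg+/- (-0.22 to 0.92, adjusted p = 0.345, edgeR).

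Ddit3 encodes CHOP, a transcription factor of the C/EBP family. It had 19.2, 5.84 and 6.83 CPM in wt, 10.7, 3.42 and 3.66 in Tdg+/-, and 15.9, 5.62, 8.38 and 4.10 in Tdg-/- lines, or 131 to 625 reads per line. Line 1 of every genotype was above every line with another number, and the genotypes overlapped. Between Tdg+/- and wt the log2 fold change of Ddit3 was -0.85 (SE 0.56), but -0.10 without wt line 1 and -1.58 without Tdg+/- line 1. It was -0.30 in Tdg-/- against wt (-1.41 to 0.81, adjusted p = 0.738, edgeR) and 0.52 in Tdg-/- against Tdg+/- (-0.62 to 1.67, adjusted p = 0.486, edgeR). A short transcript listed under the same symbol but with its own gene identifier was left out.

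Counted over the 10 genes, Tdg+/- against wt gave 0 calls at an adjusted p under 0.05 in either direction (edgeR), where 0.0288% of the 13880 genes were called. At an unadjusted p under 0.05, 7 members were lower (all but Asns, Shmt2 and Ddit3), beside 7.41% of all genes. In Psat1, Phgdh, Chac1 and Slc7a11 the Tdg+/- lines were lower without overlap, beside 9.09% of all genes. Since the genes were taken to be chosen in this comparison, nothing is read from these counts. The members farthest from and nearest to 0 in it were Slc7a11 at -1.48 and Shmt2 at 0.00. The number called moved with the fit, as it did over all genes: DESeq2 called 3 of the 10 lower, beside 1.85% of all genes, and a fit with 3 surrogate variables, which estimate unrecorded differences between lines, called 8 (all but Asns and Shmt2), beside 11.8%.

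Tdg-/- against wt gave 0 calls among the 10 genes, where 0.0718% of 13926 genes were called, 0 at an unadjusted p under 0.05, beside 9.13% of all genes higher and 6.79% lower, and 0 without overlap, beside 9.8% of all genes. DESeq2 also called 0. The median log2 fold change of the 10 was -0.23, beside -0.01 over all genes tested. Tdg-/- against Tdg+/- gave 2 higher (Psat1 and Phgdh), beside 3.52% of 13962 genes called higher, and 0 lower, beside 5.51%. The same 2 genes were the ones without overlap, beside 11.4% of all genes, and the median of the 10 was 0.42, beside -0.02.

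**Figure D2:**
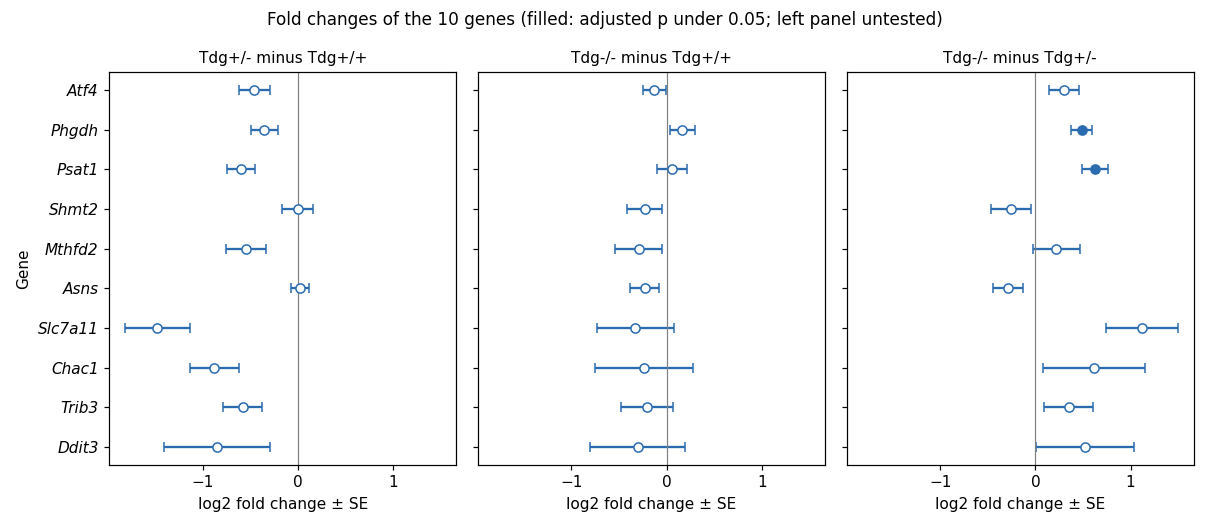
Log2 fold changes of the 10 genes with their SE in Tdg+/- minus Tdg+/+ (wt), Tdg-/- minus wt and Tdg-/- minus Tdg+/- lines. Filled points passed an adjusted p of 0.05 (edgeR) and the first comparison is shown without a test. In the left panel 8 genes lie below 0, from Phgdh (-0.35) to Slc7a11 (-1.48), with Asns (0.02) and Shmt2 (0.00) at 0, in the middle panel all points are open, and Psat1 (0.63) and Phgdh (0.48) are filled in the right panel.

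A second pattern ran across genotypes, from line to line. In Atf4, Asns, Mthfd2, Chac1, Trib3 and Ddit3, 6 of the 10 genes, line 1 was the highest of its genotype in all 3 genotypes, which held for 7.94% of the 12192 genes whose mean reached 1 CPM. Expressed as a z score over the 10 lines and averaged over the 10 genes, Tdg-/- line 1 stood at 1.22 and wt line 1 at 1.03. Next were wt line 3 at 0.61, Tdg-/- line 3 at 0.26, wt line 2 at -0.05 and Tdg+/- line 1 at -0.07. Tdg-/- line 4 stood at -0.59, Tdg-/- line 2 at -0.77 and Tdg+/- lines 2 and 3 both at -0.82. Thus a Tdg-/- line was the highest of all, and Tdg-/- line 2 was close to the lowest Tdg+/- lines.

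Sequencing depth moved with this order. Lines 1 had the fewest reads of their genotype, 31095285 in wt, 31786749 in Tdg+/- and 31987652 in Tdg-/-, and wt line 3 had 31309824, whereas the other 6 lines had 35796865 to 39916039. Over the 10 lines Pearson's r between log2 reads in genes and the mean z score was -0.81. The labels do not say whether a number marks a shared culture or sequencing batch, and the part of depth or of such a batch in the line pattern was not tested.

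**Figure D3:**
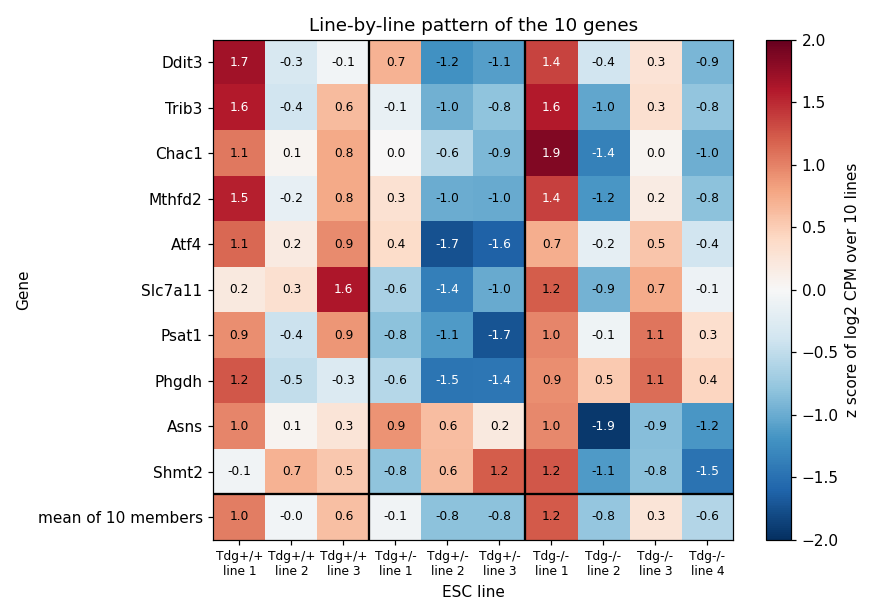
z scores of log2 CPM over the 10 lines for each gene (rows) and line (columns), with the mean of the 10 genes in the last row. Red is above and blue below the gene's own mean. Lines numbered 1 are red in wt and Tdg-/- for most genes, Tdg+/- lines 2 and 3 are blue, and Asns and Shmt2 depart from the other rows in the Tdg+/- columns.

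The genes moved together to different degrees. Over the 45 pairs Pearson's r of log2 CPM across the 10 lines had a median of 0.65, from -0.42 (Phgdh and Shmt2) to 0.98 (Mthfd2 and Trib3), and 31 pairs were above 0.5. With the mean of each genotype subtracted, the median was 0.68, so the shared movement was as large within genotypes. Without that subtraction Mthfd2, Chac1, Trib3 and Ddit3, a set picked from these same values, had r of 0.81 to 0.98 in its 6 pairs. With genotype means subtracted its r was 0.79 to 0.98, and Asns with Mthfd2, Chac1 and Trib3 was tighter, at 0.90 to 0.98. Asns and Shmt2 had a median r of 0.17 with the other 8 over 16 pairs, which became 0.52 with genotype means subtracted. Asns then had r of 0.51 to 0.97 with the other 8, the highest with Chac1, whereas Shmt2 had -0.26 to 0.53. On the TPM scale, which also carries differences in composition between lines, the median was 0.83, and without the lines numbered 1 it was 0.62 in CPM. The spread was wider without those lines, with r from -0.85 to 0.98. Then 25 pairs were above 0.5 and 9 below 0, against 31 and 5 over all 10 lines. All points of these correlations share the same 10 libraries and are given as a description.

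Among 9341 other genes whose mean reached 5 CPM, those with the highest r to the mean z score of the 10 were Gpt2 (0.98), Btbd1 (0.98), Cfl2 (0.98), Herpud1 (0.97) and Gars (0.96). Gpt2, a transaminase that makes alanine, had 187, 112 and 144 CPM in wt, 125, 79.2 and 72.7 in Tdg+/-, and 197, 66.5, 114.5 and 82.2 in Tdg-/- lines. Herpud1 acts in degradation of proteins from the endoplasmic reticulum, and Gars charges tRNA with glycine. For Atf4 alone the most alike were Dynlt3 (0.99), Ccdc160 (0.98) and Ttc9c (0.97). Dynlt3 ranged from 2.85 CPM in Tdg+/- line 2 to 13.2 in wt line 1.

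Other genes of the pathway were followed through lists, by their r with the mean z score of the 10 genes. The lists were drawn up from general knowledge, but with earlier results of these data known. The mean z score also rests on the chosen genes, so values of the lists are a description and no separate evidence. The median r was 0.85 for the 15 other stress and feedback genes, from 0.05 for Sesn2 to 0.97 for Herpud1. It was 0.76 for 13 genes of tRNA charging, the tRNA synthetases and the exporter Xpot, from 0.23 for Mars to 0.96 for Gars. For 10 amino acid transporters it was 0.65, from -0.32 for Slc7a3 to 0.96 for Slc6a9. Medians were lower for other serine, one-carbon and proline enzymes (0.21, 16 genes), NRF2 with its targets (0.09, 11 genes, Slc7a11 among them), glutathione genes (-0.03, 10 genes) and the eIF2α kinases and their regulators (-0.06, 9 genes). Since Slc7a11 is itself a member, its r of 0.82, the highest of the NRF2 list, is partly a correlation with itself. Over the 9341 genes the median r was 0.02. In the serine and one-carbon list the spread was wide, from -0.74 for Shmt1, the cytosolic counterpart of Shmt2, to 0.98 for Gpt2.

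**Figure D4:**
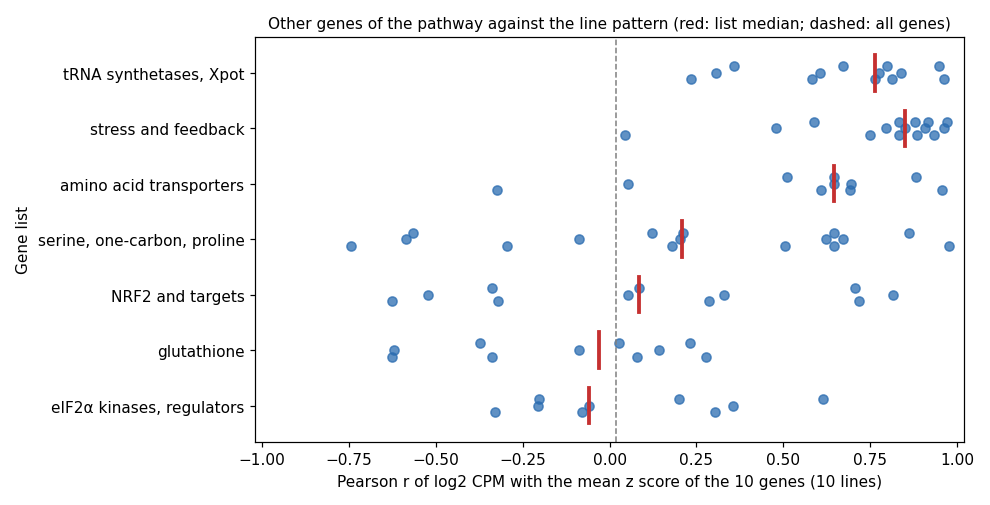
Pearson's r across the 10 lines between each listed gene's log2 CPM and the mean z score of the 10 genes, by list. Blue points are genes, red bars list medians, and the dashed line is the median of all genes (0.02). The NRF2 list includes Slc7a11, which is also a member. Stress and feedback genes, tRNA synthetases and transporters lie mostly to the right (medians 0.85, 0.76 and 0.65), the 4 other lists spread around 0.

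Of these lists, 0 genes passed the threshold in Tdg+/- against wt or in Tdg-/- against wt (edgeR, adjusted over all genes tested). At an unadjusted p under 0.05 the stress and feedback list had 6 of 14 tested genes lower in Tdg+/- against wt and 0 in Tdg-/- against wt, and its median log2 fold changes were -0.58 and -0.30. Fgf21 had too few reads to be tested. The tRNA synthetases had 4 of 13 lower and 0, with medians of -0.13 and -0.15. For transporters these counts were 2 of 10 lower in Tdg+/- and, in Tdg-/-, 2 lower and 1 higher, with medians of -0.11 and -0.38. The eIF2α list had 1 of 9 higher in each, with medians of 0.03 and -0.08. Other serine and one-carbon enzymes had 2 higher and 6 lower of 16 in Tdg+/- and 0 in Tdg-/-. Glutathione genes had 2 higher of 10 in Tdg+/-, and 2 higher and 1 lower in Tdg-/-, and NRF2 with its targets had 1 higher and 2 lower of 11, and 2 higher and 3 lower. The NRF2 genes lower in Tdg+/- include the member Slc7a11. Beside these counts, 9.55% of all genes were higher and 7.41% lower in Tdg+/- against wt, and 9.13% and 6.79% in Tdg-/- against wt. The medians over all genes were -0.02 and -0.01.

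In Tdg-/- against Tdg+/- lines single genes of the lists passed, beside 3.52% of all genes called higher and 5.51% lower, so that 1 gene of a list is near the share of all genes. Among other serine and one-carbon enzymes 1 of 16 was higher and 1 lower. Cth, which makes cysteine from cystathionine, had 256, 214 and 236.5 CPM in wt, 193, 149.9 and 154 in Tdg+/-, and 250.2, 241.5, 256 and 235.5 in Tdg-/- lines. As for Psat1 and Phgdh, its 3 Tdg+/- lines were the lowest of all (log2 fold change 0.57, SE 0.12, adjusted p = 0.0296, edgeR). Aldh1l1, a cytosolic folate dehydrogenase, was lower (-0.46, SE 0.12, adjusted p = 0.0499, edgeR).

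Psph, which completes serine synthesis after Psat1, had a log2 fold change of 0.57 (SE 0.16) in Tdg-/- against Tdg+/- lines and just missed the threshold (adjusted p = 0.0516, edgeR). It is named because of its step in the pathway, after its values were seen. Its levels were 107.7, 71.1 and 95.6 CPM in wt, 82.9, 65.1 and 54.9 in Tdg+/-, and 98.55, 87.3, 116 and 98.5 in Tdg-/- lines. The Tdg+/- and Tdg-/- lines did not overlap, while wt line 2 lay among the Tdg+/- lines.

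Among the tRNA synthetases 1 of 13 was higher, Sars, which charges tRNA with serine. It had 393, 328 and 358 CPM in wt, 284, 243 and 264 in Tdg+/-, and 377, 336, 391 and 326.5 in Tdg-/- lines (log2 fold change 0.44, SE 0.11, adjusted p = 0.0457, edgeR). Here too no Tdg+/- line reached a line of another genotype. The share of all genes with Tdg+/- lines below both other genotypes was not counted, so this order is not shown to be particular to the genes named. Tdg+/- lines were below all wt lines in 9.09% of all genes and below all Tdg-/- lines in 11.4%. In the eIF2α list 1 of 9 was lower, Gcn1l1, which helps the kinase GCN2 to sense uncharged tRNA (-0.67, SE 0.18, adjusted p = 0.0475, edgeR). Of the cell type markers 1 passed, Otx2 of the primed epiblast list, which was higher (1.09, SE 0.27, adjusted p = 0.0410, edgeR). These 5 calls were lost in the same 5 leave-one-out fits as those of Psat1 and Phgdh, with the length offset and with the replicate block. That of Sars was also lost with no filter, that of Otx2 with all 10 lines in 1 fit, and that of Aldh1l1 with RLE size factors or all 10 lines in 1 fit. The alternatives gave adjusted p up to 0.196 for Aldh1l1, 0.160 for Cth, 0.176 for Sars, 0.315 for Gcn1l1 and 0.151 for Otx2 (edgeR).

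Transporters, stress and feedback genes, glutathione genes and NRF2 targets had 0 calls in that comparison (edgeR). At an unadjusted p under 0.05 they had 1 lower of 10, 1 higher and 1 lower of 14, 1 higher and 2 lower of 10, and 1 higher and 1 lower of 11, beside 16.4% of all genes higher and 18.8% lower. Gclm, a subunit of the enzyme that starts glutathione synthesis and a target of NRF2, had the smallest p of its list in Tdg-/- against wt. It had 506, 429 and 415 CPM in wt, 638, 784 and 610.0 in Tdg+/-, and 532, 769, 734.5 and 899 in Tdg-/- lines. Every line with a lost Tdg allele was above every wt line, but the difference between Tdg-/- and wt did not pass the threshold (0.73, SE 0.18, adjusted p = 0.295, edgeR).

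Tdg-/- and wt lines were also compared in the genes with the smallest p of each list, none of which passed the threshold after adjustment (adjusted p from 0.295 for Gclm to 0.461 for Eprs, edgeR). Among transporters these were Slc38a2 (log2 fold change -0.43, SE 0.16) and Slc1a5 (-0.49, SE 0.22), which import neutral amino acids, and Slc7a3 (0.31, SE 0.11), which imports cationic ones. Among tRNA synthetases they were Iars (-0.42, SE 0.20), Eprs (-0.30, SE 0.22) and Mars (0.14, SE 0.10). In the list of serine and one-carbon enzymes, Mthfd1 (-0.28, SE 0.14) acts on folates and Shmt1 (0.24, SE 0.12) on serine. The directions within these lists were mixed.

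In the stress and feedback list, Cebpb (-0.76, SE 0.36) encodes a C/EBP factor, Sesn2 (-0.33, SE 0.16) a leucine sensor and Stc2 (-0.62, SE 0.32) a secreted glycoprotein. The eIF2α list gave Eif2s1 (0.39, SE 0.16), which encodes eIF2α, and its kinases Eif2ak4 (-0.38, SE 0.17) and Eif2ak1 (-0.26, SE 0.12). Beside Gclm, the glutathione list gave Gpx1 (0.44, SE 0.17), which detoxifies peroxides, and Gsr (-0.46, SE 0.18), which recycles oxidized glutathione. Of the NRF2 targets, Nqo1 was at 0.61 (SE 0.20) and Hmox1 at -0.36 (SE 0.14). For NRF2 targets too, genes of a list pointed in both directions.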

How the data were processed

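Total RNA of 10 ESC lines was sequenced as stranded, ribosome-depleted libraries with 1 library per line. Per the labels, Salmon 0.8.1 and the build GRCm39 were used. The authors deposited, for each transcript and line, an estimated count without normalization and a TPM scaled by effective transcript length. The effective lengths deposited by the authors, in bases, served as an offset only.

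For each gene the counts of its transcripts were added up and rounded. An annotation of the earlier build GRCm38 paired 98.97% of transcripts with genes by identifier, and reads of the others (0.472% to 0.499% per line) were left out. A gene that reached 20 reads in any 1 line of a fit was tested with edgeR 4.0.16 (quasi-likelihood, TMM) in R 4.3.3, at an adjusted p under 0.05. The alternatives were RLE size factors, no filter, filterByExpr, DESeq2 1.42.0, all 10 lines in 1 fit, a length offset, a replicate block, 3 surrogate variables (sva 3.50.0, rounded to 2 decimals, Tdg+/- against wt only), each line left out, TPM, a prior count of 0.5 in place of 2 for log2 CPM, a promoter window without the 50 bases after the start, and, chosen after seeing the data, all lines numbered 1 left out. Fits were tested on simulated data. RefSeq promoters gave the sequences.

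The members and all gene lists were chosen with earlier results of these data known. Besides the 10 members, the text names, for each pathway list, called genes and the 3 with the smallest p in Tdg-/- against wt, and the 5 genes (3 for Atf4) with the highest r. Some results that this rule names are not reported here. Other list examples were chosen after their values were seen.

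Same-numbered wt and Tdg-/- lines deviated together weakly from their genotype means (r 0.180, 0.144 and 0.198 over 12192 genes). The main fits have no term for these numbers, so their intervals and p values take no account of a possible pairing. A fit with such a term was run as an alternative only. With the replicate block, which treats the numbers as pairs, Tdg-/- against wt called 0 genes higher and 5 lower, against 5 and 5 without it, and 0 of the 10 members. No label gives such a pairing.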

Additional observations from a re-analysis of the deposited data

Results flagged for a closer look

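Among 34 genes, the 10 members and the named genes of the pathway lists, 4 had a Tdg-/- line 1 far from the other 3 by Dixon's test for a group of 4 (chance gives about 5% of groups). Eif2ak4, which encodes the kinase GCN2, had 39.1 CPM in Tdg-/- line 1 against 24.1 to 25.8 in lines 2 to 4. Its partner Gcn1l1 had 80.3 CPM against 53.2 to 56.0. Mars, which charges tRNA with methionine, had 338 CPM against 302 to 307. Eif2s1, which encodes eIF2α itself, had 495 CPM against 697 to 735. No member of the 10 ATF4 pathway genes was set apart by this test, and the normalization factor of Tdg-/- line 1 (1.036) was also unlike those of lines 2 to 4 (0.913 to 0.938). The part of composition in these values was not tested.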

How the results depend on the processing

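The direction of Psat1 and Phgdh in Tdg-/- against Tdg+/- held under all 15 alternative fits, and 8 of the 15 kept the call. The log2 fold changes were 0.55 to 0.70 and 0.43 to 0.56. In TPM, which is not among these fits, the log2 ratios of the group means were smaller, 0.37 for Psat1 and 0.22 for Phgdh. In Tdg-/- against wt, the sign turned in 8 instances, in genes with main log2 fold changes from -0.33 (Slc7a11) to 0.16 (Phgdh). Phgdh went to -0.035 with the length offset and Ddit3 to 0.00375 with the replicate block. The others were in fits without 1 line, which ranged from -0.0886 to 0.131 for Psat1, -1.01 to 0.0230 for Chac1, -0.616 to 0.127 for Slc7a11, -0.471 to 0.0275 for Trib3 and -0.789 to 0.436 for Ddit3. In Tdg-/- against Tdg+/- such fits ranged from -0.0219 to 0.423 for Mthfd2 and from -0.171 to 0.882 for Chac1, the lowest without Tdg-/- line 1. Counts of called genes moved far more. In Tdg+/- against wt, 2 genes were called higher and 2 lower. These became 1 higher with RLE size factors, 199 and 70 with no filter, 487 and 257 with DESeq2, 14 and 9 with all 10 lines in 1 fit, 0 and 0 with the length offset, 19 and 14 with the replicate block, and 1649 and 1638 with 3 surrogate variables, and of the 10 members 1, 3 and 8 were called with no filter, DESeq2 and surrogate variables. Without single lines they ranged from 0 to 168 higher and 0 to 39 lower, with 0 to 1 members. In Tdg-/- against wt (5 and 5) they became 9 and 10 with no filter, 53 and 40 with DESeq2, 3 higher with the length offset and 0 higher with the replicate block, and, without single lines, 1 to 1623 higher and 2 to 1454 lower, with 0 to 2 members, the most without Tdg-/- line 1. In Tdg-/- against Tdg+/- (491 and 770) they became 1678 and 1669 with DESeq2, 185 and 279 with the length offset, 3 and 3 with the replicate block, and 5 to 2559 higher and 6 to 3100 lower without single lines, with 0 to 4 members, and 0 members were called with the length offset or the block (adjusted p with the replicate block 0.163 for Psat1 and 0.171 for Phgdh), which also ended the calls of Cth, Sars, Aldh1l1, Gcn1l1 and Otx2. With all lines numbered 1 left out, an alternative chosen after seeing the data, the 3 comparisons called 1080 and 813 genes with 5 members (Atf4, Mthfd2, Chac1, Slc7a11 and Ddit3 lower), 2366 and 2220 with 3 members (Phgdh higher, Asns and Shmt2 lower), and 3165 and 3433 with 5 members (Atf4, Psat1 and Phgdh higher, Asns and Shmt2 lower). The cause was not tested. Tdg+/- lines had r of 0.11, 0.07 and -0.04 with same-numbered wt lines and of 0.05, 0.03 and -0.12 with Tdg-/- lines. Line 1 was nonetheless the highest of its genotype in all 3 genotypes in 7.94% of genes and the lowest in 6.39%. For lines 2 and 3 these shares were 1.08% to 2.33%. The replicate block rests on shared numbers only, and whether they mark pairs was not tested. The median over all genes stayed within 0.02 of 0 in log2 fold change under the scalings tried. In TPM, Asns in Tdg+/- against wt went from 0.03 to -0.09 as the log2 ratio of group means. With the window of 250 bases before the start only, 3 members held TGATGNAA, without Trib3. At 67 to 632 reads per line, Slc7a11, Chac1 and Ddit3 had the widest intervals among the 10 genes.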
